A study of Mus musculus with 12 samples.

Results

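Axon guidance genes are described here across neural stem cells that lack E12 or E47. The genes are the ephrins and their Eph receptors, the semaphorins with the plexins and neuropilins, the Slits with the Robo receptors, and the netrins with Dcc, neogenin and the Unc5 receptors. They were picked by the start of the gene symbol (Epha, Ephb, Efna, Efnb, Sema, Plxna to Plxnd, Robo, Slit, Ntn, Unc5) or by name (Dcc, Neo1, Nrp1, Nrp2) among the genes listed in either of the authors' deposited comparison tables. This gave 60 of the 37620 genes counted. 59 of the 60 stand in the E12 table and all 60 in the E47 table, Efna5 being the one listed only for E47. Relatives of lower signal that those tables leave out are not members.

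The cells were neural stem cells of C57BL/6J mouse embryos taken at E14.5 and kept dividing in culture with FGF-2 and EGF. The groups were E12KO (E12-/-), E12wt (E12+/+, litter mates of the E12-/- animals), E47KO (E47-/-) and E47wt (E47+/+, litter mates of the E47-/- animals), with 3 libraries of stranded mRNA sequencing in each. The gene Tcf3 encodes both E12 and E47 by alternative splicing; they are transcription factors of the basic helix-loop-helix class, known as E proteins. Nothing in the labels tells separate embryos or cultures from repeats of 1 culture, so the p-values measure only the spread between these libraries, which may in part be technical.

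Guidance ligands are read by receptors on the growing axon or the migrating cell, and the pairing largely follows the families. Ephrins sit in the membrane and bind Eph receptor tyrosine kinases on the neighbouring cell. Semaphorins bind plexins, the secreted ones mostly with a neuropilin as partner, Slits repel through Robo receptors, and netrins attract through Dcc and neogenin and repel through the Unc5 receptors. In the embryonic brain the same families also act on neural stem and progenitor cells, in cell sorting, proliferation and migration. E proteins bind the E-box, a short DNA motif of the form CANNTG.

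Reads counted on genes ranged from 34515297 to 56835783 per library, and 3 reads, the floor used here, corresponded to 0.0541 to 0.0832 CPM, the read count relative to library size (scaled by TMM over all 12 libraries). Tcf3 had 91.7, 72.9 and 101 CPM in E12KO, against 76.4, 82.2 and 75.8 CPM in E12wt, while E47KO had 118, 114 and 108 CPM, against 83.7, 75.4 and 97.2 CPM in E47wt. These whole-gene counts cannot separate E12 from E47 and so do not check the labels. All 10 neural stem cell markers listed (among them Nes, Sox2, Pax6 and Vim) averaged at least 1 CPM in each group, while 7 of 8 microglial markers averaged under 1 CPM in each group. By Xist and Y-linked transcripts, all 6 E12 libraries and E47wt replicates 1 and 3 were female, and E47wt replicate 2 and all 3 E47KO libraries were male. The E47wt libraries thus stem from more than 1 embryo, which the transcripts of the other groups do not tell. A pair of libraries stood apart from the others of their groups in a principal component analysis, E47KO replicate 2 on the first component (31.2% of the variance) and E12wt replicate 3 on the second (19.9%).

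The 3 members with the lowest unadjusted p-values for an effect shared by both knockouts were the netrin receptor gene Unc5c, the ephrin gene Efnb1 and the semaphorin gene Sema7a, whose values are given further on. Their proximal promoters are shown because E-boxes are the sites that the deleted proteins bind. Each is the 250 bases before the RefSeq transcript start, 5′ to 3′, on build GRCm38.p6, with any E-box in capitals.
Unc5c, chr3:141465314-141465563, + strand: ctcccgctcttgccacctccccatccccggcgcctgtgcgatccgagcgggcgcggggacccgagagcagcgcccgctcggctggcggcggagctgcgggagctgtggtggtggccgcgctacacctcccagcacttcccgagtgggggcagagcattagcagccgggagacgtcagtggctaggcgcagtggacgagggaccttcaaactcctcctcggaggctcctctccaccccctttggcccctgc
Efnb1, chrX:99135811-99136060, + strand: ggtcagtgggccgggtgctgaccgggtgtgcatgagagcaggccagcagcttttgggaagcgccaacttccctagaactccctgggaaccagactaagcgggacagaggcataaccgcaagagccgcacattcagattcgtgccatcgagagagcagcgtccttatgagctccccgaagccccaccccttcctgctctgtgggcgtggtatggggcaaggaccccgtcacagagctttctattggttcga
Sema7a, chr9:57939862-57940111, + strand: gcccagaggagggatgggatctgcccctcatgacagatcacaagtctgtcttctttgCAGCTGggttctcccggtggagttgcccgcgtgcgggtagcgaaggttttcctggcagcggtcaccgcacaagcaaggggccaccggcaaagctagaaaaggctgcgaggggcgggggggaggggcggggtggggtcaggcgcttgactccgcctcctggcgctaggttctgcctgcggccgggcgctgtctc
The window of Sema7a held 1 E-box, CAGCTG, which reads the same on both strands. The windows of Unc5c and Efnb1 held no CANNTG. RefSeq windows were found for 52 of the 60 genes, some with several starts. CANNTG stood in 28 of their 65 windows (43.1%), against 66.2% of the 32851 windows of all genes. CAGCTG stood in 10.8% of the members' windows and 13% of all, and CAGGTG, on either strand, in 13.8% and 17.2%. These motifs overlap, since both are forms of CANNTG, and a match or its lack in this window says nothing of binding.

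The members stood at moderate levels. Genes could be members only if the authors' tables listed them, and the lowest mean normalized signal there was 50.2 for E12 and 37.5 for E47. 58 of the 60 members averaged at least 1 CPM over the 12 libraries. This follows largely from that choice and is no result about guidance genes. Per kilobase of exon, the median of the 59 members tested was 2.60 CPM per kb, against 5.08 CPM per kb over 14744 genes, and 18 of the 59 lay above the median gene. 11 members reached 10 CPM per kb and 16 were under 1 CPM per kb.

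Among the ephrins, Efnb2 and Efnb1, transmembrane ligands of the B class, had the highest levels per length, at 9.26 and 6.38 CPM per kb. The A-class ephrins, which are held in the membrane by a lipid anchor, were lower, with Efna2 highest at 3.05 CPM per kb and Efna5 lowest at 0.24 CPM per kb. The Eph receptors followed a similar range, led by Ephb3 at 6.53 CPM per kb and Epha5 at 5.18 CPM per kb. Epha3 was the lowest Eph receptor that was tested, at 0.34 CPM per kb.

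3 of the 14 semaphorins exceeded 10 CPM per kb, all of them transmembrane forms. They were Sema6d at 20.2, Sema5b at 15.5 and Sema6a at 12.1 CPM per kb. The secreted class 3 ligands were lower, at 4.08 CPM per kb for Sema3a, 1.24 for Sema3c and 0.24 for Sema3d. Plexins, the semaphorin receptors, held the highest value of all members, 39.5 CPM per kb for Plxnb2, which lay at the 91.4 percentile of genes. Plxnb1 reached 15.9, Plxna1 12.6 and Plxnb3 11.1 CPM per kb, and the neuropilins Nrp2 and Nrp1 3.32 and 2.32 CPM per kb.

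The Slit ligands were low, at 0.46 CPM per kb for Slit1 and 0.40 CPM per kb for Slit2, while their receptors Robo1 and Robo2 stood at 3.01 and 2.76 CPM per kb. Netrin ligands were high for the secreted forms, with 21.7 CPM per kb for Ntn4 and 16.9 CPM per kb for Ntn1, and under 1 CPM per kb for the membrane-anchored netrin-G genes Ntng1 and Ntng2. Of the genes grouped here as netrin receptors, Neo1, which encodes neogenin, had 20.8 CPM per kb and Dcc, its close relative, 2.24 CPM per kb. The repulsive receptors ran from 2.47 CPM per kb for Unc5a and 1.47 for Unc5b to 0.21 for Unc5c and 0.19 for Unc5d.

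**Figure D1:**
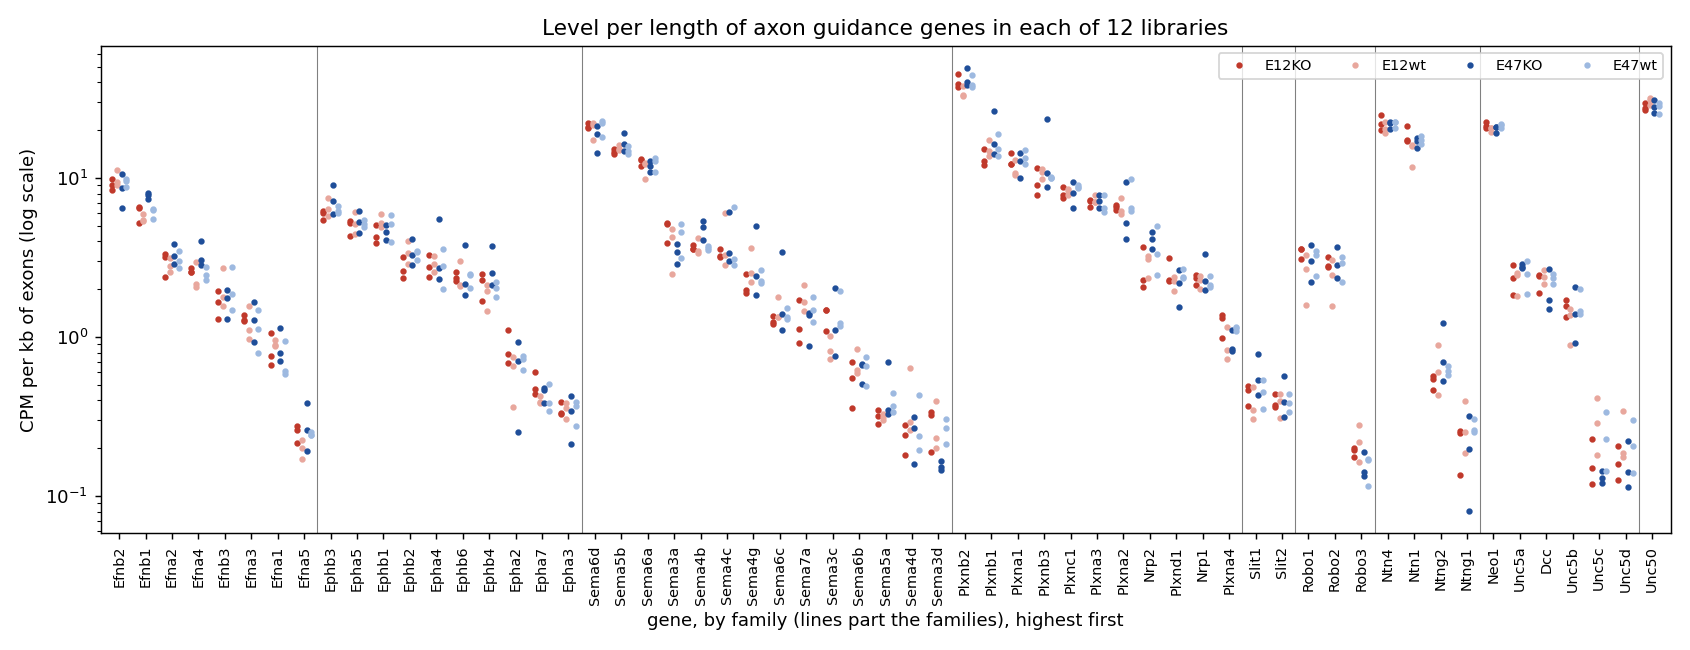
Level per length (CPM per kb of exons, log scale) of the 59 members tested in each of the 12 libraries, 1 point per library, genes grouped by family and ordered by mean. Plxnb2 was the highest at a mean of 39.5 CPM per kb, and the points of most genes overlap between groups.

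Summed per length, the 28 ligands came to 135 ± 5.82 CPM per kb in E12KO and 130 ± 4.32 in E12wt, and to 136 ± 1.32 in E47KO and 135 ± 1.49 in E47wt (SD, n = 3 each). The 30 receptors came to 168 ± 3.85 CPM per kb in E12KO and 164 ± 5.68 in E12wt, and to 184 ± 18.9 in E47KO and 175 ± 9.76 in E47wt. None of these sums differed between knockout and wild type by more than the SDs of the groups together. In these bulk libraries, fewer cells that express a gene and less RNA per cell cannot be told apart.

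A pair of members need a reservation. Epha1, an Eph receptor gene, had 39 reads on its own strand over all libraries and 1060 on the other strand, so 3.55% of its reads were its own. It entered the authors' tables through counts of both strands, did not pass the low-count filter here and was not tested. The next lowest share of own-strand reads was 92.4%, for Slit1. Unc50 was picked only by the spelling of its symbol. It encodes a Golgi protein and no netrin receptor, and stood at 28.7 CPM per kb. Leaving it out, 59 guidance genes remain.

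Loss of E12 left every guidance gene uncalled. Of the 59 members tested, none passed an adjusted p of 0.05 in E12KO against E12wt by edgeR's quasi-likelihood (QL) test with Benjamini-Hochberg (BH) adjustment over all 14755 genes, among which 6 genes (0.0407%) passed. DESeq2 also called 0 members. The smallest adjusted p of a member was 0.507, by the same edgeR test. At an unadjusted p under 0.05, 7 members stood out, 4 higher and 3 lower, which is 11.9% of the members against 8.96% of all genes (4.29% higher and 4.67% lower). The fitted log2 fold changes centred on 0, with 30 of 59 above 0, against 51.4% of all genes, and a median of 0.00, which was also the median over all genes. 54 of the 59 lay within 0.5 on the log2 scale, and the median SE of a member was 0.16.

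3 members had no overlap between E12KO and E12wt, all higher in E12KO, and none was lower. Among all genes, 13.7% had no overlap, 6.77% higher and 6.95% lower. The semaphorin Sema3c, a secreted ligand that acts through neuropilins and plexins, had 7.76, 10.5 and 10.6 CPM in E12KO, against 7.26, 5.23 and 5.85 CPM in E12wt. The lowest E12KO library thus lay just above the highest E12wt library. The log2 fold change was 0.66 ± 0.17 (SE; edgeR QL, BH-adjusted p = 0.507), and the authors' deposited table gave an adjusted p of 0.0939.

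Netrin-1 (Ntn1) had 109, 107 and 134 CPM in E12KO, against 100.1, 102 and 73.7 CPM in E12wt. The groups came closest between the second library of each, and the third library of each lay furthest from the other group. The log2 fold change was 0.35 ± 0.13 (SE; edgeR QL, BH-adjusted p = 0.532), 0.20 without E12wt replicate 3 and 0.24 without E12KO replicate 3. Epha7, a receptor of A-class ephrins, had 4.37, 5.98 and 4.68 CPM in E12KO, against 3.88, 3.81 and 4.23 CPM in E12wt, which gave 0.34 ± 0.16 on the log2 scale (SE; BH-adjusted p = 0.560 by edgeR QL).

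Unc5c was the member furthest below 0 after the loss of E12. It had 4.37, 2.88 and 2.28 CPM in E12KO, against 5.48, 3.47 and 7.89 CPM in E12wt. The first knockout library lay above the second wild-type library, so the groups overlapped. The log2 fold change was -0.82 ± 0.32 (SE; edgeR QL, BH-adjusted p = 0.534) and -0.51 without E12wt replicate 3. The other members at an unadjusted p under 0.05 were the plexin genes Plxna4 and Plxnb2, with log2 fold changes of 0.45 ± 0.19 and 0.23 ± 0.08, and the B-class Eph receptor genes Ephb1 and Ephb2, at -0.27 ± 0.11 and -0.33 ± 0.14. Ephb1 and Ephb2 were chosen for mention after their values were seen. The count of 7 became 2 without E12wt replicate 3, 1 without E12KO replicate 3 and 14 without E12wt replicate 2. The counts over all genes in these fits are not given here, so the changes are not read as particular to the members.

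By family, 5 of 8 ephrins, 4 of 10 Eph receptors, 6 of 14 semaphorins, 6 of 11 plexins and neuropilins and 3 of 6 netrin receptors lay above 0 in E12KO, with none called. Markers of other cells differed along with these groups. Of the neuronal markers 1 of 18 tested lay above 0, with a median log2 fold change of -0.29, and of the oligodendrocyte lineage markers 0 of 10, with a median of -0.49. None of these was called by edgeR's QL test, beside 27.8% of the neuronal and 40% of the oligodendrocyte lineage markers at an unadjusted p under 0.05. Of the 10 markers of mesenchyme and meninges tested, 4 lay above 0, with a median of -0.66. The same test called 3 of them lower in E12KO, the collagen genes Col1a2 and Col1a1 and the matrix proteoglycan gene Bgn. At an unadjusted p under 0.05 by that test stood 7 (70%), 2 higher and 5 lower. Col1a1 had 0.992, 0.975 and 1.19 CPM in E12KO, against 3.47, 3.86 and 3.98 CPM in E12wt, which gave -1.83 ± 0.18 on the log2 scale (SE; BH-adjusted p = 0.0105 by edgeR QL). Bgn came to -3.45 ± 0.28 (SE; edgeR QL, BH-adjusted p = 0.00433). Col1a2 averaged 0.0491 ± 0.0252 CPM in E12KO, a mean under the floor of 3 reads, and 2.02 ± 0.659 CPM in E12wt (SD, n = 3 each; edgeR QL, BH-adjusted p = 0.00433). These genes were chosen for mention after their values were seen. The sum of the 13 markers of this list ranged from 57.8 to 65.1 CPM in E12KO and from 48.2 to 76.6 CPM in E12wt. The summed oligodendrocyte lineage markers ranged from 968 to 1194 CPM in E12KO and from 1103 to 1605 CPM in E12wt, and 3 of those 13 markers averaged under 1 CPM in each group. Astrocyte markers summed to between 2464 and 2664 CPM in E12KO and between 1895 and 2505 CPM in E12wt. The part of these cells in the values of the guidance genes was not tested.

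Loss of E47 also left every member uncalled. None of the 59 members passed an adjusted p of 0.05 in E47KO against E47wt by edgeR's QL test with BH adjustment, beside 2 of 14965 genes (0.0134%), and DESeq2 called 0 as well. The smallest adjusted p of a member was 0.971 by edgeR. At an unadjusted p under 0.05 stood 4 members, 2 higher and 2 lower, 6.78% of the members against 2.19% of all genes (1.13% higher and 1.06% lower). The median log2 fold change was 0.01, with 31 of 59 above 0, against a median of -0.01 and 49% above 0 over all genes. 56 members lay within 0.5 on the log2 scale. The median SE of a member was 0.23.

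**Figure D2:**
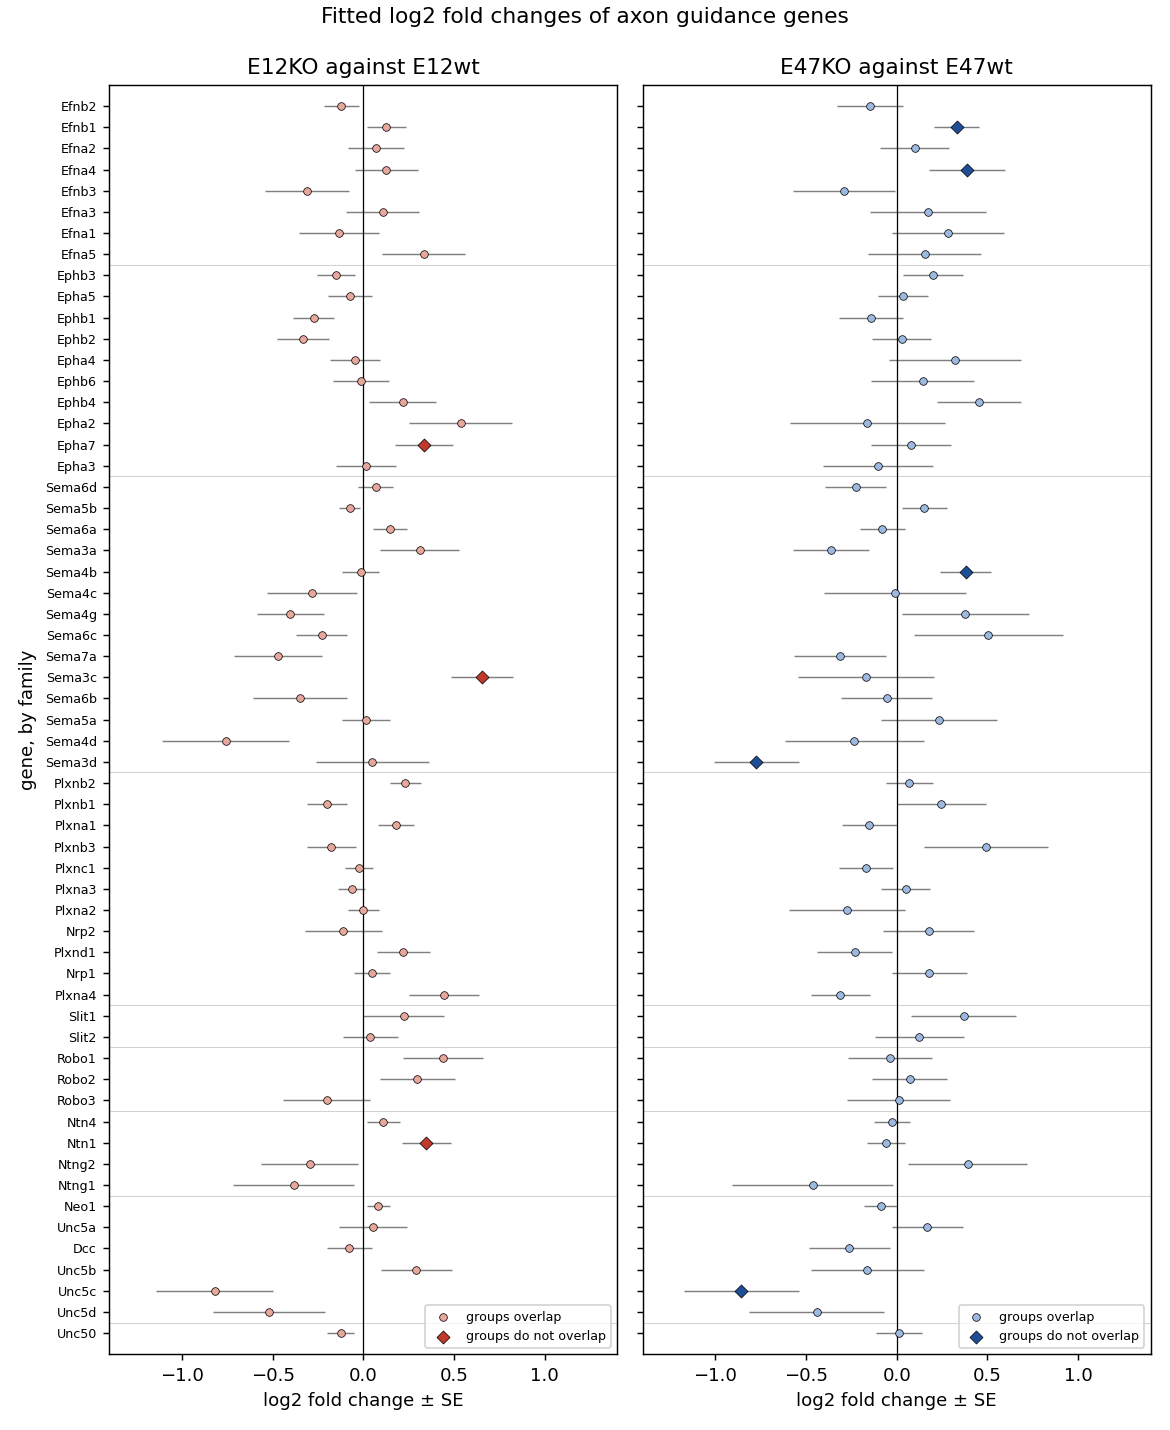
Fitted log2 fold change ± SE of each of the 59 members tested, for E12KO against E12wt (left) and E47KO against E47wt (right), genes grouped by family. Diamonds mark members whose groups of 3 libraries do not overlap, 3 after the loss of E12 and 5 after the loss of E47, and no member passed the adjusted threshold.

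5 members had no overlap between E47KO and E47wt, 3 higher and 2 lower, beside 7.81% of all genes, 4.74% higher and 3.07% lower. The ephrin gene Efnb1, which is X-linked, had 25.4, 27.7 and 27.0 CPM in E47KO, against 21.7, 19.0 and 22.2 CPM in E47wt. Every knockout library lay above every wild-type library, the male one being the lowest of the wild types. The log2 fold change was 0.33 ± 0.12 (SE; edgeR QL, BH-adjusted p = 0.971), and 0.47 with sex as a covariate. As no E47KO library was female, that covariate leaves only the male wild-type library to set against the knockouts.

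Sema4b, a transmembrane semaphorin, had 23.0, 27.7 and 30.1 CPM in E47KO, against 21.1, 20.5 and 19.8 CPM in E47wt, a log2 fold change of 0.38 ± 0.14 (SE). The ephrin gene Efna4 had 4.91, 6.43 and 4.56 CPM in E47KO, against 3.65, 4.43 and 3.94 CPM in E47wt, a log2 fold change of 0.39 ± 0.21 (SE). For both, the closest pair of libraries was near, and Efna4 came to 0.22 without E47KO replicate 2. The edgeR QL test gave a BH-adjusted p of 0.971 for each.

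The secreted semaphorin gene Sema3d had 1.32, 1.25 and 1.42 CPM in E47KO, against 1.82, 2.61 and 2.32 CPM in E47wt. These were 45 to 79 reads per library in E47KO and 67 to 122 in E47wt. The log2 fold change was -0.77 ± 0.23 (SE; edgeR QL, BH-adjusted p = 0.971). With sex as a covariate the value was -0.99, which rests on E47wt replicate 2, the only male wild type and here the highest.

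Unc5c had 2.49, 2.33 and 2.76 CPM in E47KO, against 6.45, 2.76 and 4.41 CPM in E47wt. The groups touched at the second wild-type library, which was the one male wild type and lay at the level of the knockouts. The log2 fold change was -0.86 ± 0.32 (SE; edgeR QL, BH-adjusted p = 0.971), and -0.15 with sex as a covariate. Sex and E47 genotype were partly confounded, since no E47KO library was female, and the value with the covariate rests on that male wild type. The mean of Unc5c in the all-female E12 libraries was 3.17 ± 1.07 CPM in E12KO and 5.61 ± 2.21 CPM in E12wt (SD, n = 3 each).

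By family, 6 of 8 ephrins, 7 of 10 Eph receptors, 5 of 14 semaphorins, 6 of 11 plexins and neuropilins and 1 of 6 netrin receptors lay above 0 in E47KO. Among the netrin receptors the median was -0.21. Of the neuronal markers 5 of 18 tested lay above 0, with a median log2 fold change of -0.12, of the astrocyte markers 8 of 12, with a median of 0.34, and of the oligodendrocyte lineage markers 5 of 10, with a median of 0.02. None of these was called by edgeR's QL test, beside 1, 2 and 0 at an unadjusted p under 0.05. The summed neuronal markers ranged from 1609 to 1904 CPM in E47KO and from 1820 to 1982 CPM in E47wt, and the summed astrocyte markers from 2209 to 2853 CPM in E47KO and from 1983 to 2619 CPM in E47wt. Their part in the values of the guidance genes was not tested. Without the library of E47KO that stood apart, the median over all members was -0.06, against 0.01 with it.

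**Figure D3:**
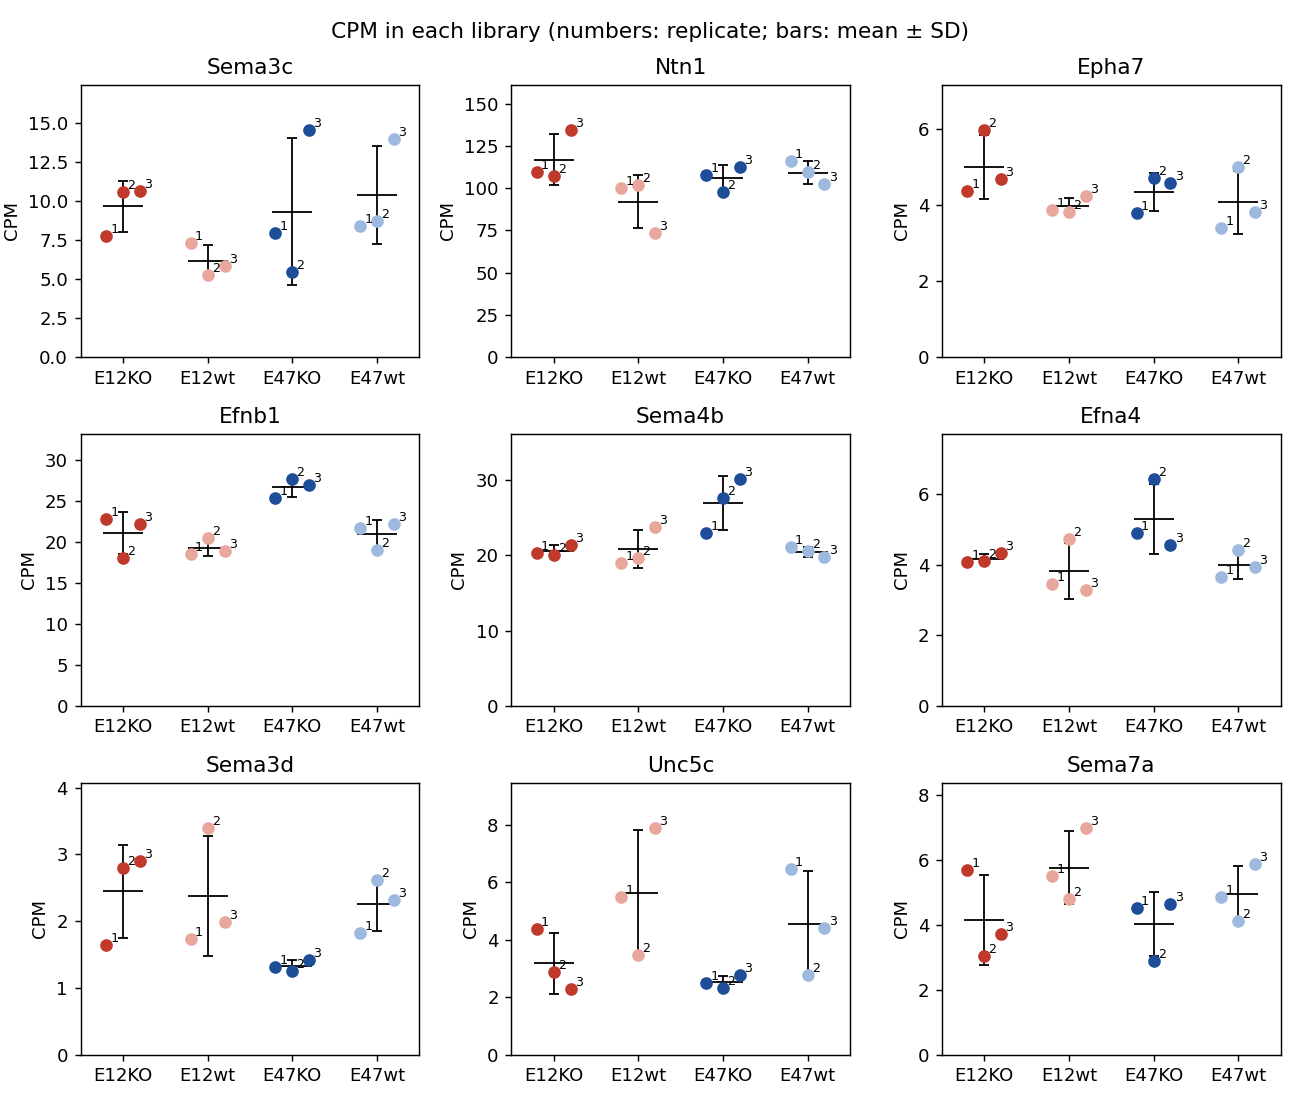
CPM of 9 members in each library (points, numbered by replicate), with the mean and SD of the 3 libraries of a group as bars, for E12KO, E12wt, E47KO and E47wt. Sema3c, Ntn1 and Epha7 had no overlap between E12KO and E12wt, Efnb1, Sema4b, Efna4, Sema3d and Unc5c none between E47KO and E47wt, and Sema7a overlapped in both lines.

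No member had groups without overlap in both lines. Among all genes, 0.773% did so in the same direction and 0.219% in opposite directions. The effect shared by both knockouts, fitted in all 12 libraries with the line as a term, called no member by edgeR's QL test or by DESeq2, beside 5 of 15277 genes by edgeR (0.0327%). At an unadjusted p under 0.05 stood 3 members, 1 higher and 2 lower, 5.08% of them against 5.94% of all genes (2.68% higher and 3.25% lower). The median log2 fold change was 0.03, with 34 of 59 above 0, against 50.2% of all genes.

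Unc5c had the lowest p of these, at -0.84 ± 0.24 on the log2 scale (SE; BH-adjusted p = 0.596 by edgeR QL). Over 19 alternatives it lay below 0, between -0.96 and -0.61, with -0.61 reached when sex was a covariate, and its adjusted p was never under 0.113. Efnb1 came to 0.23 ± 0.08 (SE; edgeR QL, BH-adjusted p = 0.767). Its CPM in the E12 line was 22.9, 18.1 and 22.3 in E12KO, against 18.5, 20.6 and 18.9 in E12wt, which overlapped. Sema7a, a semaphorin held in the membrane by a lipid anchor, had 5.68, 3.03 and 3.73 CPM in E12KO, against 5.51, 4.79 and 6.98 CPM in E12wt, while E47KO had 4.53, 2.88 and 4.65 CPM, against 4.87, 4.13 and 5.86 CPM in E47wt. Its groups overlapped in each line, and its shared log2 fold change was -0.39 ± 0.18 (SE; edgeR QL, BH-adjusted p = 0.836).

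Whether the knockout effects differed between the lines was tested as an interaction, the effect of E47 loss minus that of E12 loss. All E12 libraries were female and no E47KO library was, so this difference was largely confounded with sex. Only E47wt held both sexes, and any separation of the 2 rests on its 1 male library. No member and no gene passed the adjusted threshold in edgeR's QL test (0%), and DESeq2 called 0 members and 1 gene. At an unadjusted p under 0.05 stood 2 members, 1 above 0 and 1 below, 3.39% of them against 3.03% of all genes (1.2% above and 1.83% below). Plxna4, a semaphorin receptor gene, had 13.9, 18.7 and 19.5 CPM in E12KO, against 11.7, 16.4 and 10.3 CPM in E12wt, while E47KO had 11.6, 15.6 and 11.8 CPM, against 15.4, 16.3 and 16.2 CPM in E47wt. Its interaction was -0.75 ± 0.27 on the log2 scale (SE; edgeR QL, BH-adjusted p = 0.932), and both pairs of groups overlapped. That of Sema4b was 0.40 ± 0.17 (SE; edgeR QL, BH-adjusted p = 0.932). Of the 59 members 34 lay above 0, against 50.7% of all genes. The median over members was 0.09 and became -0.04 without E47KO replicate 2 and -0.01 without E12wt replicate 3.

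The wild types of the 2 lines were also set against each other. They differ in litter too, and the only male library among them was in E47wt. Line, litter and any batch that goes with them cannot be told apart. In E47wt against E12wt, edgeR's QL test with BH adjustment called 0 members and 0 of 14892 genes (0%), and DESeq2 0 members and 7 genes. At an unadjusted p under 0.05 stood 2 members (3.39%), both higher in E47wt, against 3.81% of all genes (2.05% higher and 1.77% lower). Above 0 lay 31 of 59 members and 48.5% of all genes. 5 members had no overlap, all higher in E47wt (Efna5, Ntn1, Plxnc1, Sema3c and Sema5a), beside 9.43% of all genes (4.93% higher and 4.51% lower). Efna5, Plxnc1 and Sema5a were chosen for mention after their values were seen.

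Sema3c averaged 10.4 ± 3.13 CPM in E47wt and 6.11 ± 1.04 CPM in E12wt (SD, n = 3 each), higher by 0.76 ± 0.22 on the log2 scale (SE; BH-adjusted p = 1.00 by edgeR QL). Its mean was 9.63 ± 1.62 CPM in E12KO and 9.30 ± 4.68 CPM in E47KO, so that E12wt was the lowest of the 4 groups. Ntn1 averaged 117 ± 15.1 CPM in E12KO, 106 ± 7.54 in E47KO, 109 ± 6.92 in E47wt and 91.9 ± 15.8 in E12wt, with E12wt again the lowest. The comparisons of E12KO and of E47wt share these E12wt libraries. Plxnb2 averaged 311 ± 30.4 CPM in E47wt and 267 ± 20.9 CPM in E12wt, higher by 0.21 ± 0.09 on the log2 scale (SE; BH-adjusted p = 1.00 by edgeR QL).

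Single libraries stood apart from the rest for many guidance genes. E47KO replicate 2 was the highest or the lowest of the 12 libraries for 36 of 59 members (61%), as for 59.3% of all genes, and E12wt replicate 3 for 20 members (33.9%), against 22.4% of all genes. The genes named from here on were chosen after their values were seen. In E47KO replicate 2 the plexin gene Plxnb3 had 152 CPM, against 69.4 and 57.2 CPM in E47KO replicates 1 and 3. The semaphorin genes Sema6c and Sema4g had 20.5 and 43.4 CPM there, and the Eph receptor gene Epha4 44.6 CPM, all above the other 11 libraries. Epha2 and Ntng1 were lower there than in any other library, at 1.19 and 0.67 CPM. In all, 16 members were over 1.5 times and 8 under 1/1.5 of the mean of the other E47KO libraries. This count was not made over all genes, so it is not read as particular to the members.

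E12wt replicate 3 was the lowest of all libraries for the Slit receptor genes Robo1 and Robo2, with 26.5 and 26.8 CPM, and for the ligands Sema3a and Ntn1, with 34.8 and 73.7 CPM. It was the highest for Sema4d and Unc5c, with 4.93 and 7.89 CPM. Here 7 members were over 1.5 times and 6 under 1/1.5 of the mean of the other E12wt libraries, again counted over the members only. Sema4c had 28.2 CPM in E47KO replicate 3, 30.1 in E47wt replicate 3 and 27.9 in E12wt replicate 3, while no other library exceeded 16.5 CPM.

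Cell type markers also set these libraries apart. E47KO replicate 2 had the highest summed astrocyte markers of the 12 libraries, 2853 CPM. Its 1538 CPM of oligodendrocyte lineage markers did not set it apart, as E47wt replicate 3 had 1534 CPM, with an astrocyte sum of 1982.5 CPM. E12wt replicate 3 had the lowest astrocyte sum, 1895 CPM, and the highest oligodendrocyte lineage sum, 1605 CPM. Their part in the guidance gene values was not tested.

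**Figure D4:**
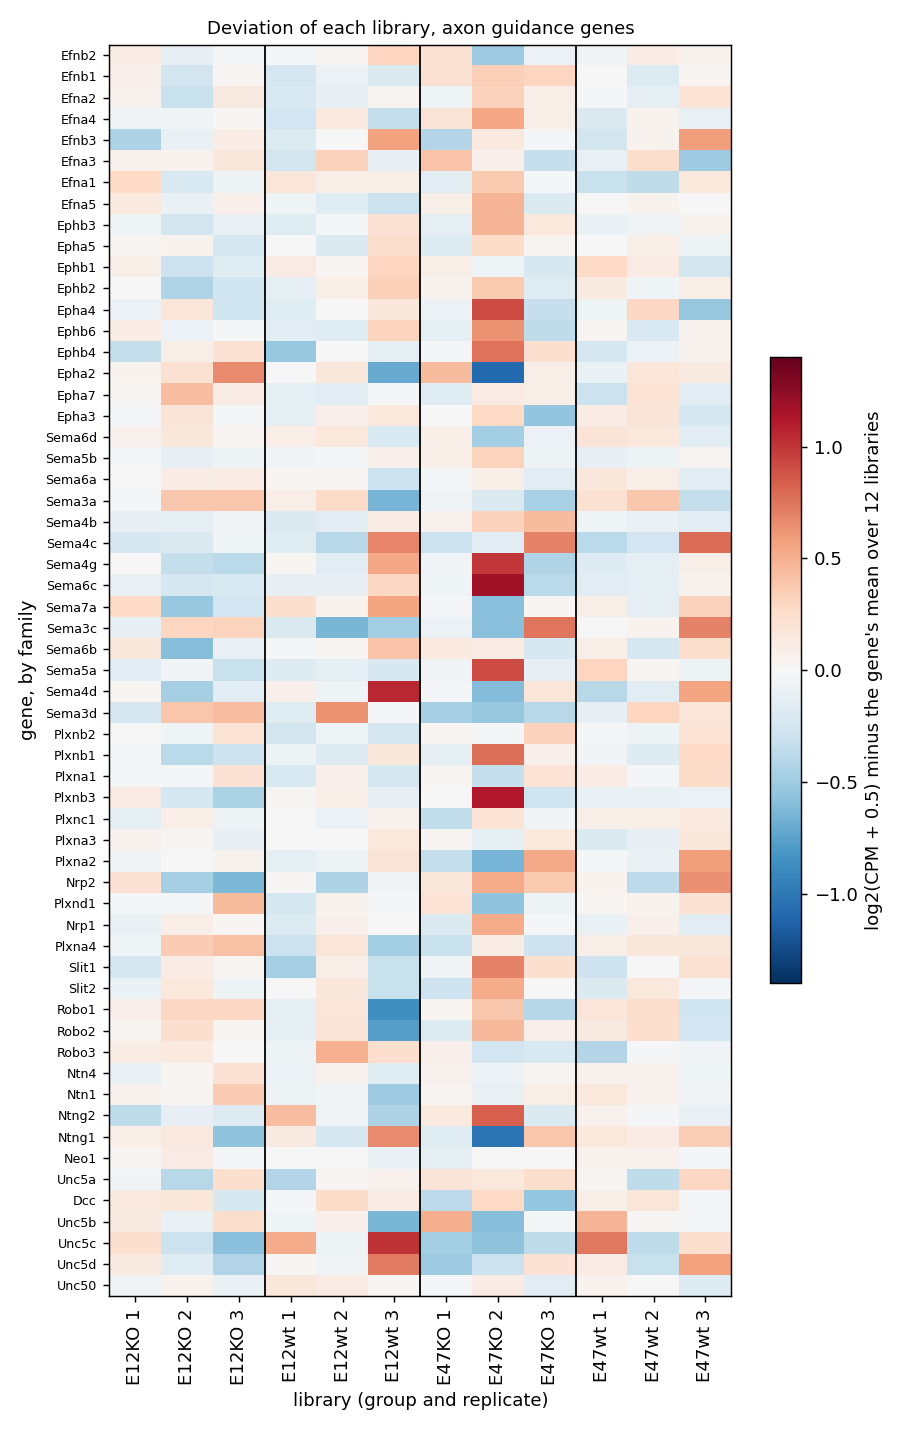
Deviation of each library from the gene's mean over the 12 libraries, in log2(CPM + 0.5), for the 59 members tested, with libraries in columns by group and genes in rows by family. The columns of E47KO replicate 2 and E12wt replicate 3 carry the strongest colours, such as Plxnb3, Sema6c and Ntng1 in the first and Robo1, Sema4d and Unc5c in the second.

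The genes downstream of these receptors were taken from a separate list of 77 cytoplasmic effectors, such as kinases and cytoskeletal proteins. Of 74 tested, 41 lay above 0 in E12KO, with a median log2 fold change of 0.02, and 30 in E47KO, with a median of -0.05. None was called by edgeR's QL test, beside 10 in E12KO (13.5%, against 8.96% of all genes) and 1 in E47KO (1.35%, against 2.19%) at an unadjusted p under 0.05. The most abundant were Cfl1, which encodes the actin-severing protein cofilin, with log2 fold changes of 0.02 ± 0.07 in E12KO and -0.06 ± 0.10 in E47KO (SE), and Fyn, a Src-family kinase, at -0.10 ± 0.06 and -0.25 ± 0.12.

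A further list held 43 other guidance ligands, receptors and adhesion molecules. Of 38 tested after the loss of E12, 17 lay above 0, with a median of -0.03, and of 40 tested after the loss of E47, 18, with a median of -0.04. None was called by edgeR's QL test, and 6 in each line had an unadjusted p under 0.05. In E12KO this was 15.8%, 2 higher and 4 lower, against 8.96% of all genes. In E47KO it was 15%, 1 higher and 5 lower, against 2.19%. For the shared effect none of 40 was called, and 8 had such a p (20%, against 5.94% of all genes), 2 higher and 6 lower. The most abundant genes of the list were the adhesion molecule gene Ncam1, at 0.06 ± 0.09 in E12KO and 0.11 ± 0.20 in E47KO (log2 fold change ± SE), and Nell2, whose product binds Robo3, at 0.17 ± 0.09 and -0.05 ± 0.10.

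The authors' own comparisons, made on counts of both strands, called none of the members either. The authors' deposited table for E12 called 62 of 12089 genes, and gave 9 of 59 members and 1140 of all genes an unadjusted p under 0.05. The authors' deposited table for E47 called 10 of 12561 genes, and gave 4 of 60 members and 382 of all genes such a p. For Unc5c the authors' deposited table gave log2 fold changes of -0.80 in E12 and -0.84 in E47, with adjusted p-values of 0.350 and 0.999.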

How the data were processed

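RNA of 12 libraries was sequenced after TruSeq stranded mRNA preparation, per the labels' protocols. The submitters' processing notes name STAR 2.5, the build mm9, DESeq2 and DESeq. The annotation release was not given in the sources used here. Deposited for each library were read counts by gene, over both strands and for either strand, of which those for the gene's own strand were used. The authors also deposited 1 table per line with normalized signal, log2 fold changes, a score per gene and p-values, of which the log2 fold changes and p-values are quoted.

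Counts were tested in R 4.3.3 with edgeR 4.0.16 (filterByExpr by group, TMM, quasi-likelihood F test, two-sided, BH over all genes tested, called under 0.05). Fits used the 6 libraries of a line, or all 12 for the shared effect and the interaction. Fold changes carry a prior count of 0.125, and their SE is the fold change over the root of F. CPM per kb used the merged exons of a GRCm38 annotation, a build other than mm9, and promoters came from RefSeq GRCm38.p6. The members and gene lists were chosen with earlier results of these data known. Members named were those called in any comparison, the 2 highest per length in each family, those without overlap in a line and those at an unadjusted p under 0.05 in the 12-library or wild-type comparisons. From each further list the 2 most abundant genes were named. Alternatives were DESeq2 1.42.0, RLE scaling, no filter, both strands, a replicate block, a sex covariate, all 12 libraries in a line's fit and leaving out each library.

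Depth was 34515297 to 56835783 gene reads per library, and the floor of 3 reads covers counting error only. No 2 libraries of a group agreed within sampling noise (chi-square over degrees of freedom 12.0 or more). Deviations of same-numbered knockout and wild-type libraries correlated at 0.118, 0.230 and 0.467 in the E47 line and at 0.103, 0.0673 and -0.0165 in the E12 line. In the E47 line, knockout replicate 2 and wild-type replicate 1 correlated at 0.15, above the first same-numbered pair. The other differently numbered pairs of that line ran from -0.33 to -0.00828. No label states a pairing, these values do not settle it, and the main fits used none. The calculations were tested on simulated data.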

Additional observations from a re-analysis of the deposited data

How the results depend on the processing

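No member was called under any alternative run, in any comparison. Counts of all genes called moved. With DESeq2, 76 genes were called in E12KO (6 by edgeR), 12 in E47KO (2), 54 for the shared effect (5), 1 for the interaction (0) and 7 for E47wt against E12wt (0). Without the filter on low counts 20 were called in E12KO, and 2 with all 12 libraries in the fit; with a sex covariate 1 was called in E47KO. The replicate block gave 4 genes in E12KO, 2 in E47KO and 2 for the shared effect, and changed no call of a member; under it 10, 6, 6, 4 and 10 members had an unadjusted p under 0.05 in E12KO, E47KO, the shared effect, the interaction and E47wt against E12wt (7, 4, 3, 2 and 2 without it). Over all genes tested, 1349, 493, 1046, 566 and 1109 genes had such a p under the block, and 1322, 328, 907, 463 and 568 without it. Leaving out each library in turn, 2 to 10 genes were called in E12KO, 0 to 7 in E47KO, 2 to 8 for the shared effect and 0 to 1 for the interaction. The median log2 fold change of the members then lay between -0.0707 and 0.0323 in E12KO, -0.0633 and 0.0941 in E47KO and -0.0408 and 0.1406 for the interaction, which was -0.0548 without E12wt replicate 3 and E47KO replicate 2 together, an alternative chosen after seeing the data. The cause was not tested. With 3 libraries a group and a median SE of 0.16 to 0.33 per member, small differences are not detectable at this replication. Larger ones can be missed too. In the simulated data, changes of 1 on the log2 scale were recovered for 78.1% of such genes in E12KO, 48% in E47KO and 40% for the interaction. These genes were drawn from all genes tested, with median SEs of 0.112, 0.201 and 0.249 in the real data. The members' median SEs were higher, at 0.156, 0.231 and 0.325, and recovery among the members alone was not measured.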
